A study of Homo sapiens with 12 samples.

Results

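Apolipoproteins are the protein part of the lipoprotein particles that carry lipid through the blood, and the liver makes most of them. The 10 genes described here are APOA1, APOA2, APOB, APOC1, APOC3, APOE, APOH and APOM, which encode apolipoproteins, MTTP, which loads lipid onto nascent particles, and LCAT, which acts on them in plasma. They were chosen by gene symbol, joined to the gene identifiers of the count tables, and are 10 of the 58721 genes listed. HepG2, a cell line from a human liver cancer, was profiled with ribosome footprints after it had received a control siRNA (siControl) or one directed at the RNA-binding protein IGF2BP3 (siIGF2BP3). After 2 days of knockdown the cells were exposed to cycloheximide, which halts elongating ribosomes, at 100 µg/mL for 4 min. For either siRNA there were 3 Input libraries, a readout of transcript abundance, and 3 RPF libraries of the 28 to 30 nt fragments that ribosomes protect from RNase I. The cultures were of 1 cell line, and the labels do not say whether the 3 libraries of a group came from separate cultures, so p-values measure the spread between these libraries, which may be technical.

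APOB is a very large, non-exchangeable protein that stays with its particle from assembly in the endoplasmic reticulum until uptake, and MTTP transfers triglyceride to it while it is being made. The other apolipoproteins are small and mostly exchange between particles. APOA1 and APOA2 are the main proteins of high-density lipoprotein, APOC1, APOC3 and APOE modulate the lipolysis and clearance of triglyceride-rich particles, APOM binds sphingosine 1-phosphate in high-density lipoprotein, and APOH (beta-2 glycoprotein I) binds phospholipid. LCAT esterifies cholesterol on high-density lipoprotein with APOA1 as its cofactor. The mRNAs differ widely in length, so the question asked was how footprint and transcript levels of the long APOB mRNA compare with those of the short apolipoprotein mRNAs, and whether any of them differ after IGF2BP3 knockdown.

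The libraries held 11219750 to 31510601 counts. Levels are given as CPM, the counts of a gene scaled to a fixed library size. IGF2BP3 itself ranged from 127 to 133 CPM in siControl Input, against 97.9 to 105 CPM in siIGF2BP3 Input, and from 74.6 to 78.1 CPM in siControl RPF, against 21.9 to 28.0 CPM in siIGF2BP3 RPF. Over all genes with enough counts, siControl RPF replicates 2 and 3 differed by less than the sampling noise (mean chi-square per gene 0.941, where counting noise alone gives about 1), and were counted as 1 sample in means and SDs, so that n = 2 there. The main edgeR fits kept them as separate libraries. An SD at n = 2 can be smaller than the spread of the single libraries. The same pair gave 4.53 over the 10 genes alone. siIGF2BP3 RPF replicate 1 stood apart from replicates 2 and 3 (19.9 and 21.5, against 1.15 between those 2), and RPF results that it changes are also given without it. The 7 hepatocyte markers summed to 28930 to 34031 CPM in Input, with ALB the highest. The leukocyte markers PTPRC and CD3E and the fibroblast marker DCN were at 0 in every Input library. CD68 carried the whole leukocyte sum of 19.7 to 24.8 CPM in Input. The fibroblast or stellate markers together ranged from 0 to 0.636 CPM in Input, with COL1A1 the highest. The endothelial markers together ranged from 1.55 to 2.94 CPM in Input, with PECAM1 the highest.

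The genes lie at 8 places in hg38, each on a different chromosome. APOB (ENSG00000084674) is at chr2:21001429-21044073 on the minus strand. APOA1 (ENSG00000118137, chr11:116835751-116837950, minus strand) and APOC3 (ENSG00000110245, chr11:116829706-116833072, plus strand) are neighbours, as are APOE (ENSG00000130203, chr19:44905754-44909393, plus strand) and APOC1 (ENSG00000130208, chr19:44914247-44919349, plus strand). APOA2 (ENSG00000158874) is at chr1:161222292-161223631 and APOH (ENSG00000091583) at chr17:66212033-66256525, both on the minus strand. APOM (ENSG00000204444) is at chr6:31652416-31658210 and MTTP (ENSG00000138823) at chr4:99563761-99623999, both on the plus strand, and LCAT (ENSG00000213398) is at chr16:67939750-67944131 on the minus strand. The canonical APOB transcript was 14121 nt long, of which 13692 nt (97.0%) were coding. The 7 short apolipoprotein transcripts were 474 nt (APOA2) to 1174 nt (APOH) long, with 252 nt (APOC1) to 1038 nt (APOH) coding. MTTP had 2685 coding nt of 3920 and LCAT 1323 of 1496.

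Ribosomes choose a start codon in part by the bases around it, with a purine 3 bases before the ATG and a G just after it being the best known. The windows of 24 bases around the annotated start codons are shown because translation of each coding sequence begins there. They are from the GENCODE release 44 transcripts, with the third base before the ATG, the ATG and the base after it in capitals.
APOB: cagctgGcgATGGacccgccgagg
APOA1: cccttcAggATGAaagctgcggtg
APOA2: gttaccAacATGAagctgctcgca
APOC1: ggcctcGccATGAggctcttcctg
APOC3: agaggtGccATGCagccccgggta
APOE: ggcaggAagATGAaggttctgtgg
APOH: tcatccAcaATGAtttctccagtg
APOM: tgcctgAagATGTtccaccaaatt
MTTP: ctggtcAatATGAttcttcttgct
LCAT: agggctGgaATGGggccgcccggc
All 10 held a purine at the third base before the ATG, as did 86.0% of 19292 canonical coding transcripts. A G followed the ATG in 2 of the 10, APOB and LCAT, against 51.4% of the transcripts, and 43.5% had both features. APOC3 and APOM, which lay at opposite ends of the footprint-to-transcript order below, both lacked the G. These letters describe the sequence and were not set against any test.

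The 10 genes took 2.89 ± 0.0995% (SD, n = 3) of all counts in siControl Input and 5.59 ± 0.0614% (SD, n = 2) in siControl RPF. In siIGF2BP3 the shares were 2.76 ± 0.0317% of Input and 5.65 ± 0.410% of RPF (SD, n = 3 each), or 5.88 ± 0.0559% of RPF without replicate 1 (SD, n = 2). Most of this was 1 gene, since APOB held 76.8% to 81.2% of the counts of the 10 genes in each of the 12 libraries. For APOB the siControl Input libraries held 23215, 21537 and 22063 CPM and the siControl RPF libraries 43751, 44549 and 44365 CPM. Its siIGF2BP3 libraries held 21970, 21063 and 21599 CPM in Input and 40426, 48049 and 47257 CPM in RPF. Within each assay the conditions overlapped, and the lowest and the highest of the RPF libraries were both siIGF2BP3 libraries.

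**Figure D1:**
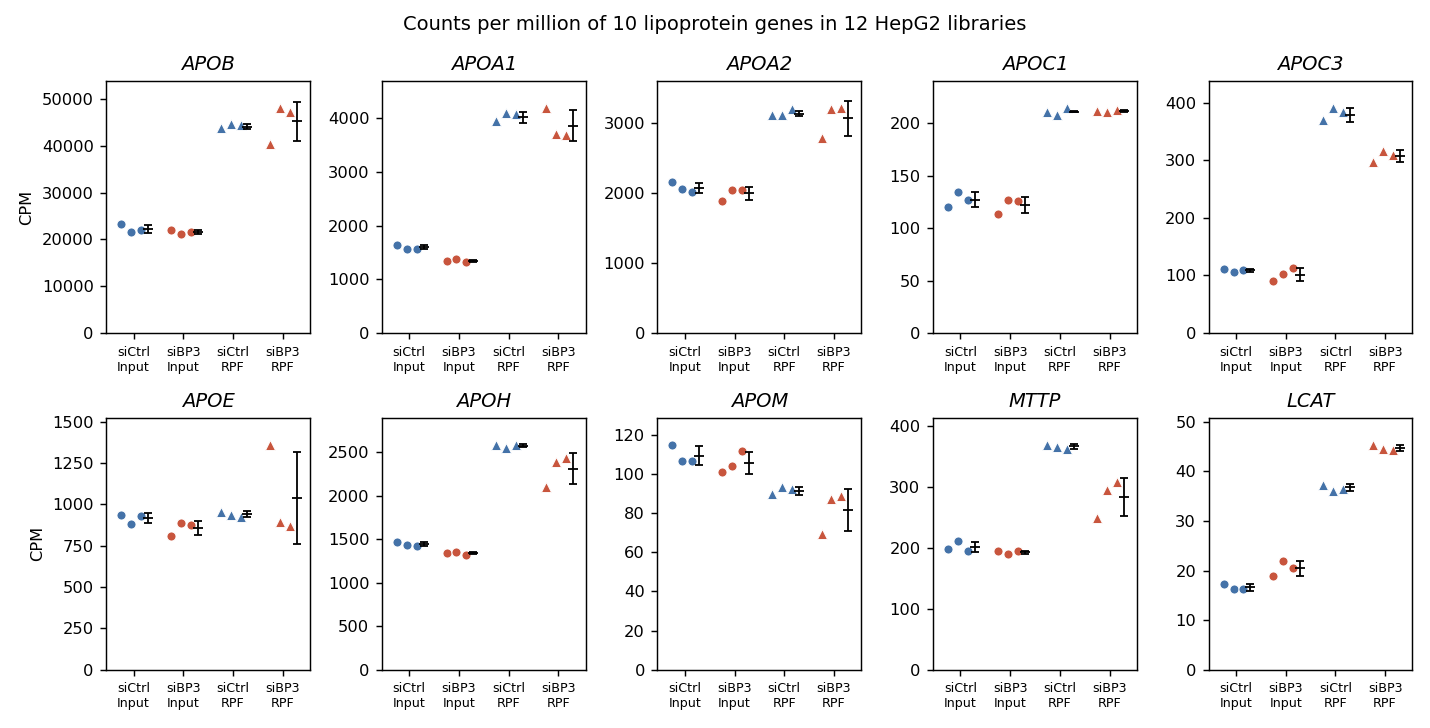
CPM (linear axis from 0, a different scale in each panel) of the 10 genes in the 12 libraries, with circles for Input and triangles for RPF, blue for siControl (siCtrl) and red for siIGF2BP3 (siBP3). Points are libraries 1 to 3 from left to right, and the black bar beside them gives mean ± SD, with n = 2 in siControl RPF because replicates 2 and 3 were counted as 1 sample. APOE reached 1361 CPM in siIGF2BP3 RPF replicate 1 and 868 to 956 CPM in the other 5 RPF libraries.

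The levels of the 10 genes were ordered per length, as CPM per kb of transcript for Input and per kb of coding sequence for RPF. In siControl Input the highest was APOA2 at 4382 ± 150 CPM per kb (SD, n = 3), followed by APOA1 at 1772 ± 41.0, APOB at 1577 ± 60.8, APOH at 1229 ± 20.3 and APOE at 787 ± 25.4. APOC1 (248 ± 13.7), APOC3 (203 ± 4.18), APOM (144 ± 6.36), MTTP (51.4 ± 2.07) and LCAT (11.1 ± 0.416 CPM per kb) came below them. The libraries of no pair of neighbours in this order overlapped. In siIGF2BP3 Input, APOB (1492 to 1556 CPM per kb) and APOA1 (1475 to 1522) overlapped and the other neighbours did not.

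Footprints per coding kb had nearly the same order. In siControl RPF, APOA2 was at 10356 ± 114, APOA1 at 4996 ± 131, APOB at 3221 ± 36.5 and APOH at 2483 ± 17.0 CPM per coding kb (SD, n = 2). APOC3 stood at 1262 ± 40.3, above APOE (988 ± 18.9) and APOC1 (838 ± 1.63), whereas in Input it was below both. The single APOC1 libraries ranged from 826 to 852 CPM per coding kb, a wider spread than its SD at n = 2. APOM was at 161 ± 3.58, MTTP at 136 ± 1.47 and LCAT at 27.8 ± 0.545 CPM per coding kb. The libraries of neighbours did not overlap in siControl RPF. In siIGF2BP3 RPF only APOE (910 to 1426) and APOC3 (988 to 1052 CPM per coding kb) overlapped. That overlap came from replicate 1, and in replicates 2 and 3 APOC3 (1052 and 1030) was above APOE (934 and 910).

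To ask how many footprints each mRNA carried for its abundance, RPF per coding kb was divided by Input per transcript kb. APOC3 had the highest ratio in siControl, 6.20 (log2 2.63), above 87.5% of 11773 protein-coding genes. APOC1 (log2 1.76), APOA1 (1.50), MTTP (1.41), LCAT (1.33) and APOA2 (1.24) followed, at percentiles 69.5 to 55.3. APOB (log2 1.03) and APOH (1.01) were close to the median of all genes, 1.04. APOE at 0.33 and APOM at 0.16 were lowest, at percentiles 30.6 and 26.9. These percentiles depend on the length factors. Without them, APOC3 was at percentile 93.1 of the same 11773 genes in siControl, APOB at 80.8 and APOH at 77.1. APOE (55.4) and APOM (46.7) were again the lowest. In siIGF2BP3, MTTP (1.10 ± 0.095, SE) and APOB (1.11 ± 0.081, SE) differed by less than their SEs, so their order was not established there. Short secreted apolipoproteins stood at both ends of the order, with APOB between them.

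Over all genes the ratio was lower at greater coding length. Coding length is itself a divisor in this ratio, and the trend was not computed without length factors. APOB was read against genes of its own length. The median log2 ratio in siControl was 1.87 for 1654 genes under 600 coding nt, 1.46 for 3271 genes of 600 to 1200 nt, 0.86 for 5234 genes of 1200 to 3000 nt, 0.16 for 1310 genes of 3000 to 6000 nt and -0.36 for 304 genes of 6000 nt or more. In that longest class APOB was above 84.2% of the genes, with 47 above it. APOA2, APOC1 and APOM lay below the median of the shortest class and APOC3 above it. APOE and APOH lay below and APOA1 slightly above the median of theirs, and LCAT and MTTP lay above theirs. These positions are descriptions without a test, and the libraries of a pair share depth and preparation across genes.

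**Figure D2:**
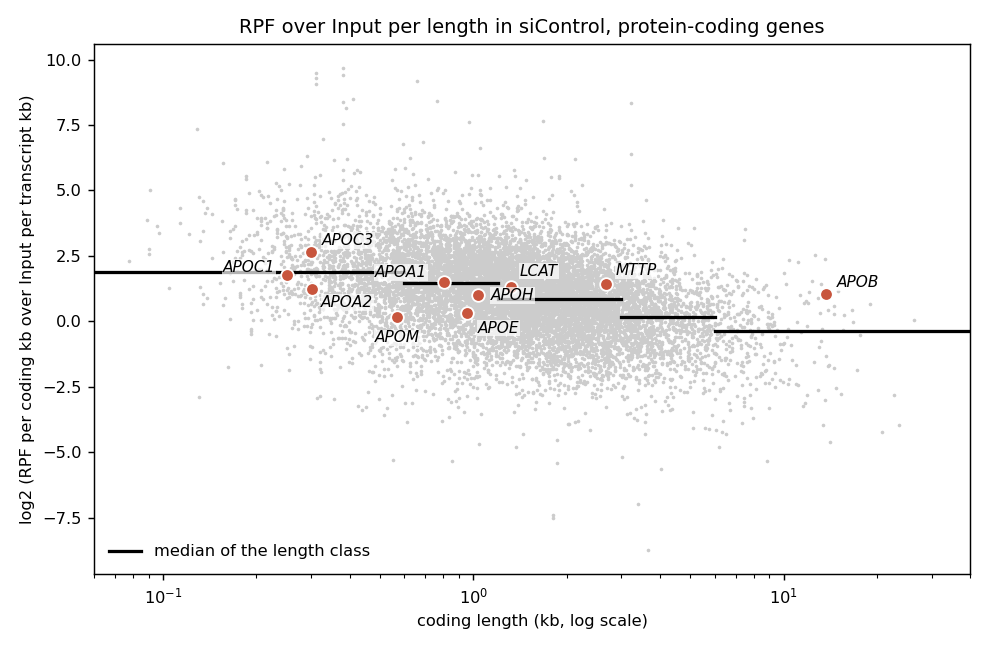
Log2 ratio of RPF per coding kb to Input per transcript kb in siControl (vertical axis) against coding length in kb (horizontal axis, log scale) for 11773 protein-coding genes (grey) and the 10 lipoprotein genes (red), with black lines at the median of each of 5 length classes. APOB, at 1.03, lies above the median of -0.36 of the longest class, while APOA2, APOC1, APOM, APOE and APOH lie below the medians of theirs.

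Without length factors, footprints and transcripts of each gene were also compared by edgeR, scaled within each assay, so that a gene is higher or lower in RPF relative to the other genes. In siControl 8 of the 10 genes were higher in RPF, where 42.5% of all genes tested were higher and 86.7% were called in either direction. The log2 differences ran from 0.72 ± 0.05 (SE) for APOA2 to 1.93 ± 0.06 for APOC3, with APOB at 1.11 ± 0.05. APOE (0.15 ± 0.14, adjusted p = 0.321, edgeR) and APOM (-0.13 ± 0.07, adjusted p = 0.0737, edgeR) were not called. In siIGF2BP3 all 10 genes were called, against 86.6% of all genes. Of these 9 were higher, against 42.3% of all genes, and APOM was lower (-0.18 ± 0.07, adjusted p = 0.0208, edgeR), against 44.3%. The fit shares 1 spread over the 12 libraries, and the calls of APOE and APOM moved with single libraries. Without siIGF2BP3 RPF replicate 1 all 10 genes were called in siControl as well, APOE at 0.16 (adjusted p = 0.000198, edgeR) and APOM at -0.13 (adjusted p = 0.00508, edgeR), with 89.1% of 13479 genes called. In siIGF2BP3 that fit put APOE at 0.21, called, and APOM at -0.09, not called (adjusted p = 0.0717, edgeR), with 88.2% of genes called. The APOM call in siIGF2BP3 was also lost without siIGF2BP3 Input replicate 3, and the APOE call without the filter on low counts, where APOM was called in siControl. The difference between the conditions was tested only as TE, given below.

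APOB was then set against the 7 short apolipoproteins in each library, as the log2 ratio of APOB to their geometric mean, each per length. This log2 ratio was 1.29, 1.22 and 1.26 in siControl Input and 1.05, 1.06 and 1.05 in siControl RPF. It was 1.41, 1.25 and 1.27 in siIGF2BP3 Input and 1.02, 1.26 and 1.24 in siIGF2BP3 RPF. In siControl every RPF library lay below every Input library, and in siIGF2BP3 the assays overlapped. The mean ratio in RPF minus Input was -0.20 in siControl and -0.14 in siIGF2BP3 (-0.06 without siIGF2BP3 RPF replicate 1), and the mean of both was -0.17 (exact two-sided permutation test within conditions, p = 0.01, where 200 permutations allow no p under 0.005). Without that library the mean of both was -0.13 (exact permutation p = 0.02, 100 permutations). The sign depends on the length factors, because APOB is almost wholly coding while untranslated sequence makes up a large part of several short mRNAs. Without length factors the same difference was 0.29 (exact permutation p = 0.005). Per length, leaving out APOC1 and APOE gave -0.22 (exact permutation p = 0.005). The same counts gave a low p-value in both directions. The test therefore does not settle whether APOB was higher or lower in RPF relative to the short apolipoproteins.

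**Figure D3:**
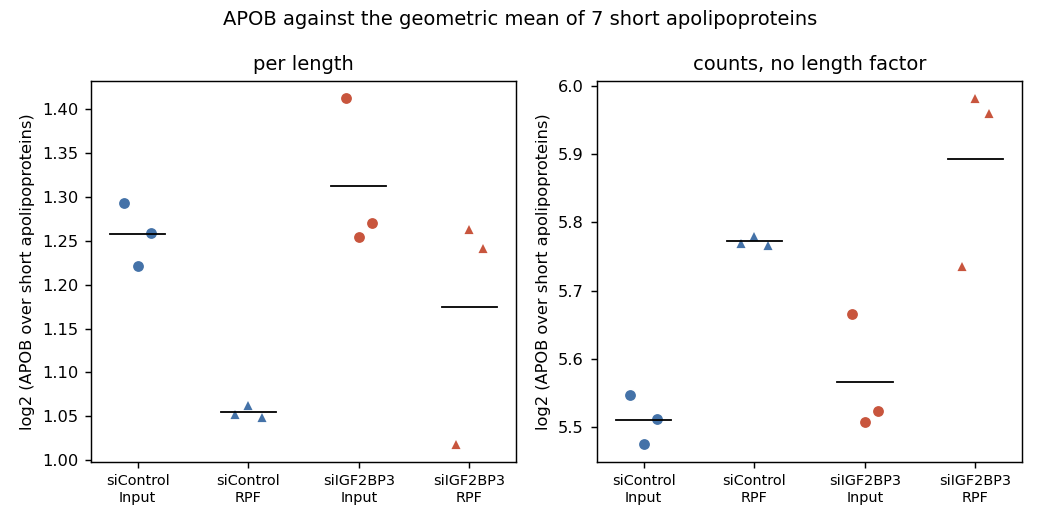
Log2 ratio of APOB to the geometric mean of 7 short apolipoproteins in each library, per length on the left and from counts without length factors on the right (axes do not start at 0). Blue marks siControl and red siIGF2BP3, circles Input and triangles RPF, and lines are group means, with siControl RPF replicates 2 and 3 counted as 1 sample. Per length the mean was lower in RPF than in Input by 0.20 in siControl and 0.14 in siIGF2BP3, and without length factors it was higher by 0.26 and 0.33.

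After knockdown no difference in this ratio was established. It was 0.05 higher in siIGF2BP3 than in siControl Input (exact permutation p = 0.5, 20 permutations) and 0.12 higher in RPF (exact permutation p = 0.4, 10 permutations), where neither design could give a p under 0.1. Without siIGF2BP3 RPF replicate 1 the RPF difference was 0.20, and without siIGF2BP3 Input replicate 1 the Input difference was 0.0050.

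The 6 Input libraries gave the transcript levels after knockdown. APOA1 and APOH fell, and 9 of the 10 genes had a log2 fold change below 0, with LCAT the exception. The 2 calls (edgeR quasi-likelihood test, Benjamini-Hochberg adjusted p under 0.05) compare with 1.90% of 14759 genes that fell, 4.05% that rose and 5.96% called in all. The median log2 fold change of the 10 genes was -0.11 and of all genes 0.00, with 49.5% of all genes below 0. At an unadjusted p under 0.05 there were 7 of the 10 and 3017 of the 14759.

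The siControl Input libraries held 1635, 1571 and 1571 CPM of APOA1, and the siIGF2BP3 Input libraries 1332, 1368 and 1326 CPM. The highest siIGF2BP3 library was below the lowest siControl library, and the log2 fold change was -0.29 ± 0.04 (SE, edgeR adjusted p = 8.81e-05), a call kept in each of 11 alternatives. For APOH the siControl Input libraries held 1470, 1430 and 1428 CPM and the siIGF2BP3 Input libraries 1342, 1352 and 1325 CPM. The groups did not overlap here either, and the log2 fold change was -0.15 ± 0.04 (SE, edgeR adjusted p = 0.0278). The APOH call was lost without siControl Input replicate 3 or siIGF2BP3 Input replicate 2 or 3, and with an offset for gene length, with the log2 fold change between -0.17 and -0.12 in all alternatives.

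The remaining 8 genes did not pass in Input. APOE was at -0.14 (adjusted p = 0.062, edgeR) and passed under 4 of 11 alternatives. APOC3 was at -0.15 (adjusted p = 0.150, edgeR) and passed without siIGF2BP3 Input replicate 3 (-0.22, adjusted p = 0.0462, edgeR). MTTP was at -0.11, APOC1 at -0.11, APOA2 and APOB at -0.10 and APOM at -0.10 (adjusted p = 0.148 to 0.31, edgeR). LCAT had 17.3, 16.2 and 16.2 CPM in the siControl Input libraries and 18.9, 21.9 and 20.5 CPM in those of siIGF2BP3. The latter were all higher, and its log2 fold change was 0.26 ± 0.09 (SE, edgeR adjusted p = 0.102). Counting LCAT, 4 of the 10 genes had groups that did not overlap: APOA1, APOH and MTTP were lower in siIGF2BP3 (5.73% of all genes) and LCAT was higher (19.2% of all genes).

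Several transcripts of other liver genes were lower in the same libraries. Of 7 hepatocyte markers 4 fell, namely ALB (-0.19), AFP (-0.23), TF (-0.29) and SERPINA1 (-0.26), where 1.90% of all genes fell. FGB (-0.08) and TTR (-0.15) were not called, and HNF4A (-0.00071) was unchanged. All 7 were below 0, against 49.5% of all genes. Summed, the markers made up 32565 to 34031 CPM in siControl Input, against 28930 to 29739 CPM after knockdown. The part of this shift in the APOA1 and APOH values was not tested. In bulk libraries, fewer cells expressing a gene and less RNA per cell cannot be told apart.

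**Figure D4:**
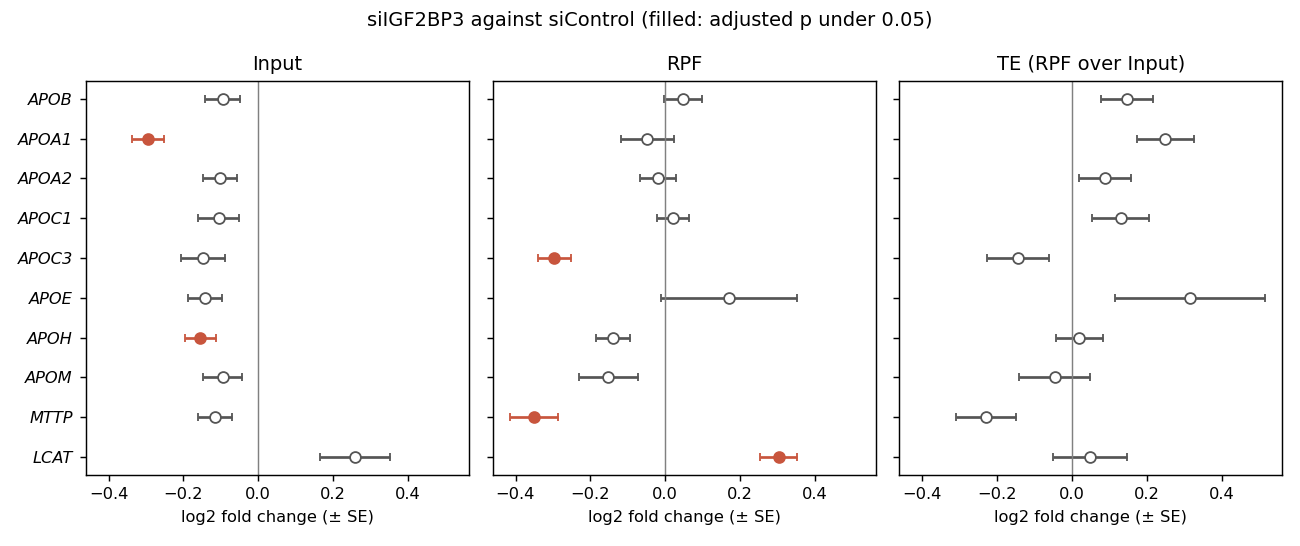
Log2 fold change of siIGF2BP3 against siControl (horizontal axis) with its SE from edgeR for the 10 genes (vertical axis) in Input, RPF and TE, the change of RPF beyond that of Input. Filled red points have an adjusted p under 0.05, which holds for APOA1 and APOH in Input and for APOC3, MTTP and LCAT in RPF, and the widest SE is that of APOE in RPF and TE. The RPF and TE fits entered siControl RPF replicates 2 and 3 separately, and with that pair summed no RPF call was kept.

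In the 6 RPF libraries APOC3 and MTTP fell and LCAT rose, and these were not the genes called in Input. This fit entered siControl RPF replicates 2 and 3 as separate libraries. None of these calls was kept with that pair summed (adjusted p = 0.171 to 0.218, edgeR). The 3 calls compare with 1.66% of 20192 genes called, 0.649% that fell and 1.02% that rose. The median log2 fold change of the 10 genes was -0.03 and of all genes 0.01. In 5 of the 10 genes the groups did not overlap, with APOC3, MTTP, APOH and APOM lower in siIGF2BP3 (14.8% of all genes) and LCAT higher (10.9%). For APOA1, APOE, APOB and APOA2 the overlap came from siIGF2BP3 RPF replicate 1. Replicates 2 and 3 lay below every siControl library for APOA1 and APOE, and above every one for APOB and, narrowly, APOA2. The share of all genes without replicate 1 was not computed.

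APOC3 footprints were 370, 391 and 384 CPM in the siControl libraries, against 296, 316 and 309 CPM in those of siIGF2BP3. The groups were apart, and the log2 fold change was -0.30 ± 0.04 (SE, edgeR adjusted p = 0.0239). MTTP footprints were 369, 366 and 361 CPM in the siControl libraries, against 248, 295 and 307 CPM in those of siIGF2BP3. Replicate 1 was the lowest of these, and the log2 fold change was -0.35 ± 0.06 (SE, edgeR adjusted p = 0.046). LCAT footprints were 37.3, 36.1 and 36.5 CPM in the siControl libraries, against 45.4, 44.6 and 44.3 CPM in those of siIGF2BP3. The siIGF2BP3 libraries were all higher, by 0.30 ± 0.05 on the log2 scale (SE, edgeR adjusted p = 0.0326).

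All 3 footprint calls were lost when single libraries were left out, and those of MTTP and LCAT also under other processing, while their direction was kept. MTTP was not called with upper-quartile factors or an offset for gene length, and LCAT was not called by DESeq2. Over 13 alternatives the log2 fold change was -0.33 to -0.27 for APOC3, -0.40 to -0.28 for MTTP and 0.27 to 0.32 for LCAT. With siControl RPF replicates 2 and 3 summed, edgeR called 0 of the 10 genes, where 0.0673% of 20790 genes were called. At an unadjusted p under 0.05 there were 3 of the 10 and 2285 of the 20790. Leaving out any 1 RPF library other than siIGF2BP3 RPF replicate 1 also gave 0 calls among the 10, where 0.0532% to 0.345% of all genes were called. In these fits 3 to 5 of the 10 had an unadjusted p under 0.05, against 10.3% to 16.5% of all genes. DESeq2 on all libraries called 2 of the 10, and 1.27% of all genes. Without siIGF2BP3 RPF replicate 1, 7 of the 10 were called, 2 of them higher and 5 lower, but so were 16.5% of 20615 genes. In that fit MTTP was at -0.28, APOC3 at -0.29, LCAT at 0.27, APOA1 at -0.13, APOE at -0.10, APOH at -0.09 and APOB at 0.10 (adjusted p = 6.06e-05 to 0.0188, edgeR). When the near-identical pair was summed as well, 5 were called (APOA1, APOC3, APOE, MTTP and LCAT), with 14.5% of 20901 genes.

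APOE showed how far 1 library moved a value. Its footprints were 956, 934 and 926 CPM in the siControl libraries, against 1361, 891 and 868 CPM in those of siIGF2BP3. Replicate 1 was the highest of the 6 and the other siIGF2BP3 libraries were the lowest. The log2 fold change was 0.17 ± 0.18 (SE, edgeR adjusted p = 0.722) with replicate 1 and -0.10 ± 0.02 (SE, edgeR adjusted p = 0.0141) without it. In the same library APOA1, at 4187 against 3676 to 4099 CPM, and LCAT were also the highest of the 6 RPF libraries, and APOB, APOA2, APOC3, APOH, APOM and MTTP were the lowest. APOC1 was the steadiest footprint, at 208 to 215 CPM in all 6 libraries, with a log2 fold change of 0.02 ± 0.04 (SE, edgeR adjusted p = 0.876).

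Translational efficiency (TE), the footprint change beyond the transcript change, was tested with 12 libraries in 1 model, as the interaction term of knockdown and assay. edgeR called 0 of the 10 genes, where 2.17% of 13395 genes were called (0.814% rose and 1.36% fell), and DESeq2 also called 0. At an unadjusted p under 0.05 there were 3 of the 10 in edgeR and 2 in DESeq2, against 15.9% and 10.7% of all genes. These were, in edgeR, APOA1 at 0.25 ± 0.08 (SE, adjusted p = 0.0957), MTTP at -0.23 ± 0.08 (SE, adjusted p = 0.147) and APOB at 0.15 ± 0.07 (SE, adjusted p = 0.304). APOA1, which fell in Input, had an RPF log2 fold change of -0.05 ± 0.07 (SE). Without siIGF2BP3 RPF replicate 1, APOA1 (0.17, adjusted p = 0.0287, edgeR) and APOB (0.21, adjusted p = 0.0105, edgeR) rose, with 10.0% of 13479 genes called. The same 2 genes passed when siControl RPF replicates 2 and 3 were summed as well, with 8.05% of 13522 genes. LCAT differed by 0.26 in Input and 0.30 in RPF, and its TE difference was 0.05 ± 0.10 (SE, edgeR adjusted p = 0.879).

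The counts of some of these genes are uncertain, since how shared reads were counted is not stated. Fractional counts, which counting that splits shared reads would leave, were found in all 12 libraries for APOM, in 11 for APOC1, 10 for APOA1, 9 for APOE, 8 for APOB and LCAT, 7 for APOA2 and APOH, 4 for MTTP and 2 for APOC3. The pseudogene APOC1P1 held 59.2 CPM in siControl RPF and 4.79 CPM in siControl Input. LCAT overlaps SLC12A4 on the same strand, which was at 114 CPM in siControl Input and 81.3 CPM in siControl RPF. After knockdown SLC12A4 stood at 121 CPM in Input and 79.1 CPM in RPF. The gene model ENSG00000280087 overlaps both APOE and APOC1 on the same strand and held 40.3 CPM in siControl Input and 36.6 CPM in siControl RPF. On the opposite strand APOM overlaps BAG6, APOA1 overlaps APOA1-AS, APOB overlaps ENSG00000280390, and MTTP overlaps TRMT10A and ENSG00000248676.

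A further 59 genes of lipoprotein metabolism were followed by count. Their calls are to be read beside the shares of all genes called, 5.96% in Input, 1.66% in RPF and 2.17% in TE. In Input 51 were tested, and APOA5, an apolipoprotein that promotes triglyceride lipolysis, fell by 0.37 on the log2 scale (adjusted p = 0.0402, edgeR), while SCARB1, the high-density lipoprotein receptor, rose by 0.22 (adjusted p = 0.0263, edgeR). APOA5 went from 18.0 ± 2.47 to 14.3 ± 0.953 CPM and SCARB1 from 70.7 ± 5.17 to 85.0 ± 0.913 CPM (SD, n = 3 each). Their median log2 fold change was -0.01, with 27 of 51 below 0, unlike the 9 of 10 given above, and this difference was not tested. In RPF 52 were tested. SEC24A, a cargo adaptor of the COPII coat that carries particles out of the endoplasmic reticulum, rose by 0.31 (adjusted p = 0.0499, edgeR), and SOAT2, which esterifies cholesterol for lipoprotein cores, fell by 0.30 (adjusted p = 0.0242, edgeR). SOAT2 was the 1 gene of 51 called in TE, at -0.42 (adjusted p = 0.0276, edgeR), with Input going from 26.8 ± 2.87 to 30.2 ± 1.38 CPM (SD, n = 3 each) and RPF from 89.6 ± 0.0122 (SD, n = 2) to 71.9 ± 0.232 CPM (SD, n = 3). The other 17 of 19 assembly and secretion genes did not pass in RPF. The calls were lost in 5 of 10 alternatives for APOA5 and 6 of 11 for SCARB1 in Input, and in 9 of 13 for SEC24A and 8 of 13 for SOAT2 in RPF. The TE call of SOAT2 was lost in 10 of 19.

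The genes whose level followed APOB most closely over the 12 libraries, by Pearson correlation of log2 (CPM + 1) among 9390 protein-coding genes, were NCBP1, TTC27, PSMD1, ABCG2 and PRKDC, each with r = 0.998. Among the lipoprotein genes r with APOB ran from 0.989 for APOA2 to 0.313 for APOE, with APOM at -0.76. The points fall into an Input and an RPF cluster, so r here mostly describes the difference between the assays.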

How the data were processed

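Per the submitters' processing notes and the study's methods, the authors used Cutadapt for trimming, STAR for alignment to hg38 and featureCounts for counting. Versions, strand settings and the handling of shared reads are not given in the sources used here. Each of the 12 deposited tables holds unscaled estimated counts of 58721 genes, some of them fractional. One protocol text is attached to Input and RPF samples, so the Input preparation is not described. For testing, counts were rounded to whole numbers. Symbols, transcripts and coding lengths came from GENCODE release 44 (hg38) by identifier without version, which matched 58207 genes (99.1%); gene coordinates are those of the deposited tables.

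RNA (6 Input libraries), RPF (6 libraries) and TE (12 libraries, interaction of assay and knockdown) were tested on all genes with edgeR 4.0.16 (R 4.3.3; filterByExpr, TMM factors, within each assay for TE, quasi-likelihood test, Benjamini-Hochberg threshold 0.05). RPF over Input within each condition came from the TE fit. APOB ratios were compared by exact two-sided permutation tests. SEs derive from the estimate and its F statistic. Alternatives, run on all of these where they apply, were DESeq2 1.42.0, upper-quartile factors, no filter, a length offset, the replicate number as a block, siControl RPF replicates 2 and 3 summed, and each library left out; summing that pair without siIGF2BP3 RPF replicate 1 was added after seeing the data. The 10 genes, the 59 further genes and the markers were chosen with earlier results of these data known. The text names the 10 genes, IGF2BP3, the further genes called in any comparison and the 5 genes most like APOB. Loci neighbouring the 10 genes and single markers were named after their values were seen. No molecular identifiers are described in the sources used here, so errors are given as the spread among replicates. Depth was 11219750 to 31510601 counts per library.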

Additional observations from a re-analysis of the deposited data

How the results depend on the processing

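Without length factors, or with the 1 exon length of the tables for both assays, the APOB difference between RPF and Input reversed to 0.29, and it was -0.19 to -0.13 with each library left out. The deviations of same-numbered libraries correlated at r = -0.22 to 0.15, not above 0.1 in every pair, so the numbers were not taken to pair them. With the replicate block that difference stayed at -0.17 with an exact p of 0.0625, and the block gave 2 of the 10 genes in RPF (APOC3 and MTTP), 0 further genes in RPF (15 at an unadjusted p under 0.05) and 0 in TE (11). In Input the length offset gave 1 of the 10 genes, and leaving out a library 1 to 3. For the further genes in Input, DESeq2 called 0 (7 at an unadjusted p under 0.05, 17 without an adjusted p), upper-quartile factors 4, and leaving out a library 0 to 2. In RPF, summing siControl replicates 2 and 3 gave 0 of the 10 and 0 of the further genes (11 at an unadjusted p under 0.05), DESeq2 0 of these (9) and upper-quartile factors 1. Leaving out a library gave 0 to 7 of the 10 in RPF and 0 to 2 in TE, and 0 to 22 and 0 to 6 of the further genes, the highest without siIGF2BP3 RPF replicate 1. Without that library 16.5% of all genes were called in RPF and 10.0% in TE. Summing gave 0 of the further genes in TE (11). Of all genes, 16% in RPF and 13.9% in TE had an unadjusted p under 0.05 with the replicate block. These shares were 12.8% in Input and 5.79% in RPF by DESeq2, and 11% in RPF and 13.2% in TE with the pair summed. Summing without siIGF2BP3 RPF replicate 1 gave 5 and 22 in RPF and 2 and 4 in TE, where 14.5% and 8.05% of all genes were called. In the other alternatives 0.0532% to 1.88% of all genes were called in RPF, 0.903% to 2.20% in TE and 2.95% to 6.31% in Input. Single log2 fold changes that reversed without siIGF2BP3 RPF replicate 1, and again with the pair summed as well, were 0.027 and 0.035 for APOA2 in RPF, -0.097 and -0.099 for APOE in RPF, -0.030 and -0.025 for SCARB1 in RPF and 0.039 and 0.047 for APOM in TE. APOH in TE reversed with the length offset (-0.056) and without siIGF2BP3 RPF replicate 3, and LCAT in TE with the length offset (-0.0027) and without siIGF2BP3 Input replicate 1. With each library left out these values ran from -0.043 to 0.027 (APOA2), -0.097 to 0.30 (APOE), -0.030 to 0.063 (SCARB1), -0.10 to 0.039 (APOM), -0.013 to 0.068 (APOH) and -0.00098 to 0.11 (LCAT). The cause was not tested, other than for the length factors. LCAT, at 16.2 to 45.4 CPM, was the least deeply counted of the 10 genes.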
